A study of Mus musculus with 12 samples.

Results

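The genes described here are 9 genes that mark layers of excitatory neurons in the cerebral cortex, out of 55487 genes in the counts table. They are Cux1, Cux2, Rorb, Lamp5 and Rasgrf2 for the upper layers, Fezf2, Bcl11b and Foxp2 for the deep layers, and Neurod6 for excitatory neurons of the forebrain in general. Members were chosen by name, as the rows of the table whose gene identifiers map to these symbols, and all 9 were found. RNA was sequenced from the brain and the liver of 6 mice. Mice A, C and F lack Mettl5 in the whole body (KO), through a floxed exon 2 removed by a CMV-cre transgene. Mice B, D and E are labelled WT, whereas the study's text gives the controls of its RNA sequencing as heterozygous and counts the mice as 3 pairs, without saying which mice form a pair, and elsewhere describes reads from a wild-type and a KO littermate. All mice came from a colony backcrossed to C57BL/6. Each library came from 1 mouse, and the study used male and female mice from juvenile to adult age, without giving the age or sex of a single mouse or the part of the brain that was taken. Mice E and F had at most 20 counts of Y-linked transcripts in a library and the other 4 mice at least 2112, so each genotype held 1 mouse without them. METTL5 adds a methyl group to 1 adenosine of 18S rRNA, and the question put to the brain libraries was which transcripts differ in its absence.

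Excitatory neurons of the cortex are born in sequence, the deep layers before the upper ones. Transcription factors that repress each other fix which layer and which projection a neuron acquires. CUX1 and CUX2 are homeodomain factors of upper layer neurons that connect areas of the cortex, RORB is a nuclear receptor that marks layer IV, FEZF2 acts upstream of BCL11B (also known as CTIP2) in layer V neurons that project to the brainstem and spinal cord, and FOXP2 is a forkhead factor of layer VI neurons. LAMP5 is a membrane protein of the endosome, RASGRF2 is an exchange factor for RAS and RAC proteins, and NEUROD6 is a basic helix-loop-helix factor of forebrain excitatory neurons. Several of these genes are not confined to their layer: BCL11B and FOXP2 are also made in striatal neurons, FOXP2 in cerebellar Purkinje cells and RORB in the thalamus. In whole tissue, fewer cells of a type and less RNA per cell cannot be told apart.

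Library totals in brain ran from 14403309 to 18365114 counts, and the members had from 106 (Fezf2) to 2748 (Cux1) counts in a brain library. Levels below are CPM, counts scaled to a common library size with edgeR's TMM factors. Mettl5, the targeted gene, was at 9.09, 5.87 and 5.02 CPM in WT mice B, D and E and at 3.33, 3.96 and 3.82 CPM in KO mice A, C and F. The ranges did not overlap (exact two-sided permutation test, p = 0.1, the smallest that 3 against 3 libraries allow), and the log2 fold change of -0.84 had an adjusted p of 0.373 in edgeR. Correlations of log2 CPM between brain libraries ran from 0.960 to 0.980 within a genotype and from 0.931 to 0.981 between genotypes. Markers of other brain regions set a pair of libraries apart. KO mouse A had the lowest level of 9 cerebellar genes (mean log2 deviation -2.71), and WT mouse D the lowest level of 9 striatal genes (-1.07). By this measure the cerebellar, olfactory bulb, choroid plexus, thalamic and striatal lists also set all KO apart from all WT libraries. Values without KO mouse A and WT mouse D are given below as values without mice A and D, a pair chosen after the data were seen. Without this pair the median log2 fold change was -0.93 for cerebellar and 2.88 for olfactory bulb genes. Where the pair holds the extremes of a difference, leaving it out narrows that difference by construction. Markers of forebrain excitatory neurons were present in each brain library: Camk2a, a kinase of excitatory synapses, lay between 565 and 1459 CPM.

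Promoter sequences show how the starts of these genes differ in composition, and were drawn for members whose levels followed each other closely over the brain libraries (Cux1 with Cux2, and Rorb with Neurod6). RefSeq entries on build GRCm38.p6 (250 bases before to 50 after a start) matched 8 members with 11 entries, and none was matched for Foxp2. Capitals mark matches, on either strand, to the letters of TATAAA (the TATA box), CCAAT (the box bound by NF-Y), GGGCGG (a GC box), CANNTG (the E-box core that helix-loop-helix factors such as NEUROD6 recognise) and ATCGAT (the core associated with CUX proteins). Among 32851 promoters of this length, 13.6% held TATAAA, 37.4% CCAAT, 35.7% GGGCGG, 72.3% CANNTG and 0.925% ATCGAT. All 5 sequences below read 5′ to 3′ on the minus strand.
Cux1, chr5:136565932-136566231: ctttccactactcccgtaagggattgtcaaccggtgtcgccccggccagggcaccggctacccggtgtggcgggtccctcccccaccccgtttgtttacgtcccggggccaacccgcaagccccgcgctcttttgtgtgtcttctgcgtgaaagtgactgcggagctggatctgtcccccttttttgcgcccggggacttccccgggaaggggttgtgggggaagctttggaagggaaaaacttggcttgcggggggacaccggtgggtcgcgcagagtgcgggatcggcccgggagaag
Cux2, first entry, chr5:122049802-122050101: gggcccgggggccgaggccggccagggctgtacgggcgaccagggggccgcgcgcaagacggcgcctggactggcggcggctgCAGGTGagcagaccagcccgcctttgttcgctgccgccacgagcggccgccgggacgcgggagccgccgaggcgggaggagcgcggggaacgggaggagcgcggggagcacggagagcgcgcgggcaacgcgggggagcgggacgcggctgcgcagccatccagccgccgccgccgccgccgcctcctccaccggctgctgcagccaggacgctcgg
Cux2, second entry, chr5:122047776-122048075: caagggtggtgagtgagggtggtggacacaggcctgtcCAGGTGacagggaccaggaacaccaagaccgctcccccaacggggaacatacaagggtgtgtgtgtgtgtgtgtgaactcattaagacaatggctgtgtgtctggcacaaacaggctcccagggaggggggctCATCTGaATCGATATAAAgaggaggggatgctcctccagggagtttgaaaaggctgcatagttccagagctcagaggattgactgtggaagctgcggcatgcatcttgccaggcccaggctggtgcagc
Rorb, first entry, chr19:19111147-19111446: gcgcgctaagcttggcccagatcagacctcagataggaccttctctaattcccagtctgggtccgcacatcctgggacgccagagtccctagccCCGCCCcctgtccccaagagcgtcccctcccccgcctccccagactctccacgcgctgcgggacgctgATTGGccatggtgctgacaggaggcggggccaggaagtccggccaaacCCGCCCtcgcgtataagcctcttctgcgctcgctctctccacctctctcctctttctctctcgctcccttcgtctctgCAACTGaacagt
Neurod6, chr6:55681214-55681513: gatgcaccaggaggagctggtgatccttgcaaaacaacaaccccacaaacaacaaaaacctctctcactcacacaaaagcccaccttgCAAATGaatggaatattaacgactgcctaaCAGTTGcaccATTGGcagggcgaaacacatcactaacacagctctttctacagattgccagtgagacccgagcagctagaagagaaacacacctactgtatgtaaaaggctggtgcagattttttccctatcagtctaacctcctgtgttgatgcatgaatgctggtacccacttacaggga

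The first Cux2 entry was 80.3% G and C, above 99.1% of all promoters, whose median was 52.7%. Its second entry was 56.7% G and C and held 1 match to TATAAA and 1 to ATCGAT, which share a base. Cux1 (65% G and C) had no match to any of the letters searched. The Rorb entry printed (63.7%) held 2 matches to GGGCGG, 1 to CCAAT and 1 to CANNTG, and its other entry (41% G and C) held 3 to CANNTG. Neurod6 (46.3%) held 1 match to CCAAT and 2 to CANNTG. These are matches of letters, not sites shown to be bound.

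In KO brain, no change was called in any of the 9 layer genes. All 9 passed the filter on low counts, and 0 of 9 were called by edgeR's quasi-likelihood test at an adjusted p under 0.1, beside 11 of 17188 genes tested (0.0640%), all higher in KO brain. At an unadjusted p under 0.05, 1 of the 9 (Foxp2, higher in KO) passed, beside 11.0% of all genes (5.96% higher and 5.01% lower), and DESeq2 called 0 of 9, beside 1.52% of the genes it tested. In 0 of 9 did the KO and WT ranges separate, beside 16.3% of all genes (8.41% with KO above WT and 7.94% with KO below). The sign was positive for 6 members and negative for 3, with a median log2 fold change of 0.12 (0.06 without mice A and D, and -0.0016 over all genes, with 49.8% positive). In the plot of levels by library, the KO and WT points of each gene interleave.

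**Figure D1:**
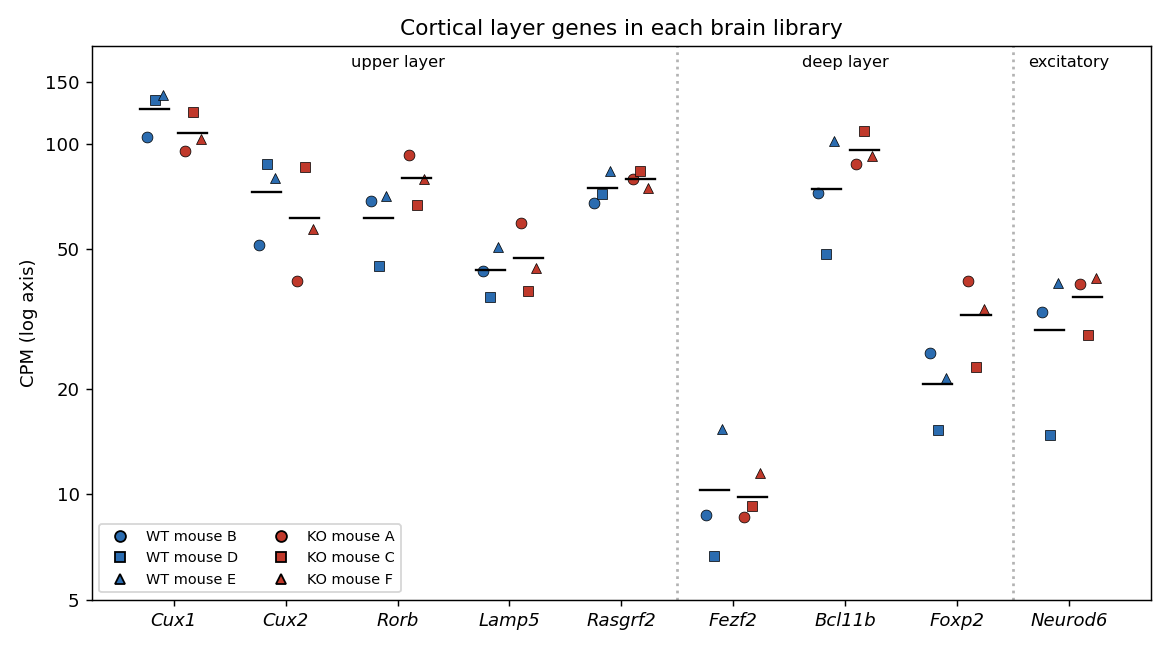
Level of each of the 9 genes in each brain library, in TMM-scaled CPM on a log axis; blue points are the 3 WT mice, red points the 3 KO mice and black lines the group means. The KO and WT ranges overlap for all 9 genes, and WT mouse D (blue squares) is the lowest library for Rorb, Lamp5, Fezf2, Bcl11b, Foxp2 and Neurod6.

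Among the upper layer genes, Cux1 and Cux2 had lower means in KO brain. Cux1 (ENSMUSG00000029705.17, chr5:136248135-136567490, minus strand) was at 105, 133 and 138 CPM in WT mice B, D and E and at 95.4, 123 and 103 CPM in KO mice A, C and F. Its means of 125 ± 18.0 and 107 ± 14.2 CPM (SD, n = 3 each) were about as far apart as the SD within WT, and KO mouse C lay inside the WT range. The log2 fold change was -0.23 (SE 0.16, 95% interval -0.58 to 0.13, edgeR adjusted p = 0.583), and -0.10 without mice A and D. Cux2 (ENSMUSG00000042589.18, chr5:121856366-122050102, minus strand) was at 51.4, 87.6 and 79.8 CPM in WT mice B, D and E and at 40.6, 85.8 and 57.2 CPM in KO mice A, C and F. The highest libraries of the genotypes (mice D and C) were close to each other, and the lowest (mice B and A) lay below all others. The fold change of Cux2 was -0.25 on the log2 scale (SE 0.29, 95% interval -0.91 to 0.40, edgeR adjusted p = 0.734), and it was 0.12 without mice A and D.

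Rorb, Lamp5 and Rasgrf2 had higher means in KO brain, again within overlapping ranges. Rorb (ENSMUSG00000036192.15, chr19:18930605-19111196, minus strand) was at 68.8, 44.8 and 70.8 CPM in WT mice B, D and E and at 92.8, 66.7 and 79.1 CPM in KO mice A, C and F. The largest value was that of KO mouse A and the smallest that of WT mouse D, so leaving out both narrows a positive difference by construction. Its log2 fold change of 0.37 (SE 0.20, 95% interval -0.07 to 0.82, edgeR adjusted p = 0.499) came to 0.06 without these mice. Lamp5 (ENSMUSG00000027270.14, chr2:136052239-136069917, plus strand) was at 43.2, 36.5 and 50.8 CPM in WT and at 59.5, 37.9 and 44.3 CPM in KO, in the same order of mice. The same library, KO mouse A, was the highest, and the log2 fold change was 0.12 (SE 0.19, 95% interval -0.32 to 0.55, edgeR adjusted p = 0.821) with all libraries and -0.19 without mice A and D. Rasgrf2 (ENSMUSG00000021708.17, chr13:91880400-92131656, minus strand) varied least, from 67.9 to 83.8 CPM over the 6 libraries. It was at 67.9, 72.0 and 83.6 CPM in WT and at 79.5, 83.8 and 74.6 CPM in KO, a log2 fold change of 0.09 (SE 0.13, 95% interval -0.21 to 0.39, edgeR adjusted p = 0.801) that was 0.06 without mice A and D. That interval, the narrowest of the 9, leaves room for differences of up to 1.31-fold.

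Of the deep layer genes, Foxp2 had the largest difference of the 9 members. Foxp2 (ENSMUSG00000029563.16, chr6:14901349-15441977, plus strand) was at 25.2, 15.3 and 21.4 CPM in WT mice B, D and E and at 40.5, 23.0 and 33.8 CPM in KO mice A, C and F. KO mice A and F lay above all WT libraries and KO mouse C below WT mouse B, so the ranges overlapped. The means were 20.6 ± 5.02 and 32.4 ± 8.81 CPM (SD, n = 3 each), a 1.57-fold difference with a log2 fold change of 0.65 (SE 0.24, 95% interval 0.11 to 1.20). Its unadjusted p was 0.0229 and its adjusted p over all genes 0.396 in edgeR, with 0.284 in DESeq2. Without a filter on low counts, where 3.15% of 31780 genes were called, the adjusted p of Foxp2 was 0.0269, a call made under none of the other 13 alternatives. The estimate was 0.29 without mice A and D, its highest KO and its lowest WT library.

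Bcl11b and Fezf2, which act together in layer V, were not called either. Bcl11b (ENSMUSG00000048251.15, chr12:107910403-108003602, minus strand) was at 72.4, 48.4 and 101 CPM in WT mice B, D and E and at 87.2, 109 and 92.0 CPM in KO mice A, C and F. WT mouse D was far below the rest and WT mouse E lay within the KO range. The log2 fold change was 0.38 (SE 0.24, 95% interval -0.17 to 0.92, edgeR adjusted p = 0.565), or 0.21 without mice A and D. Fezf2 (ENSMUSG00000021743.6, chr14:12342094-12348189, minus strand) was the lowest member in CPM, at 8.70, 6.67 and 15.4 CPM in WT and 8.62, 9.28 and 11.5 CPM in KO. Here the WT libraries spanned the whole KO range, and the log2 fold change was -0.07 (SE 0.30, 95% interval -0.73 to 0.60, edgeR adjusted p = 0.944), or -0.22 without mice A and D. The Fezf2 estimate turned to 0.36 without WT mouse E and to 0.016 without KO mouse A. Neurod6 (ENSMUSG00000037984.9, chr6:55677822-55681263, minus strand) was at 33.2, 14.7 and 40.1 CPM in WT and at 39.7, 28.4 and 41.3 CPM in KO. Its log2 fold change of 0.32 (SE 0.33, 95% interval -0.45 to 1.08, edgeR adjusted p = 0.710) rested on WT mouse D, the lowest library, and was -0.01 without it and -0.07 without mice A and D.

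**Figure D2:**
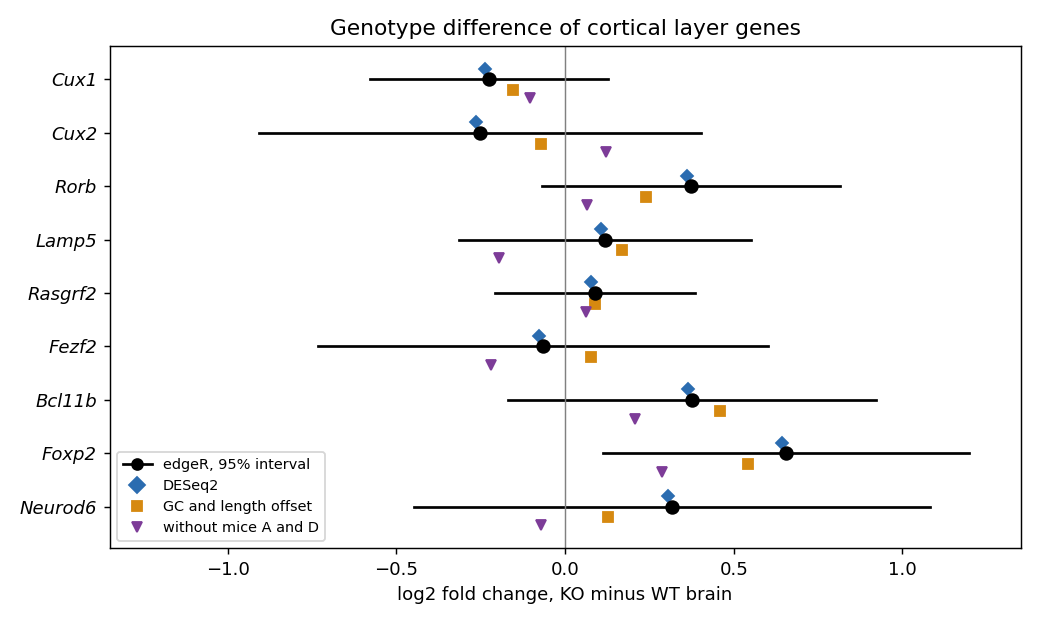
Log2 fold change of KO against WT brain for the 9 genes (horizontal axis); black points and bars are edgeR estimates with 95% intervals, and coloured symbols the estimates from DESeq2, with a GC and length offset, and without KO mouse A and WT mouse D. Only the interval of Foxp2 (0.11 to 1.20) lies clear of 0, and leaving out the mice moves Cux2, Lamp5 and Neurod6 across 0.

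Exact permutation tests of single genes gave two-sided p-values from 0.2 (Cux1 and Foxp2) to 0.9 (Fezf2), where 0.1 is the smallest possible. The members also differ in base composition. The longest transcripts of Rorb, Neurod6 and Foxp2 were 41.6%, 41.9% and 42.6% G and C, and those of Cux2 and Fezf2 55.5% and 55.9%, beside a median of 48.8% over genes tested. With an offset for GC content and length the log2 fold change was 0.24 for Rorb, 0.13 for Neurod6, 0.54 for Foxp2, -0.07 for Cux2 and 0.08 for Fezf2, and 0 of 9 were called. How far composition contributes to the differences was not tested further.

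The balance of upper and deep layer genes was read within each library, as the mean log2 CPM of the 5 upper genes minus that of the 3 deep genes. It was 1.34, 1.97 and 1.31 in WT mice B, D and E and 1.16, 1.37 and 1.06 in KO mice A, C and F. WT mouse D stood above the other 5 libraries, since its deep layer mean (4.10) was the lowest, while its upper layer mean (6.07) lay within the range of the others (6.01 to 6.33). The group means of 1.54 ± 0.37 and 1.20 ± 0.16 (SD, n = 3 each) overlapped in range, as KO mouse C was above WT mice B and E. The difference between them, KO minus WT, was -0.35, and it was -0.13 without WT mouse D.

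Across the 6 brain libraries some members varied together, given here as a description over 6 libraries that differ in genotype and in regional markers. Cux1 and Cux2 followed each other (Pearson r = 0.93, Spearman rho = 0.77, and r = 0.95 without the 2 libraries farthest from the median of Cux1). Rorb followed Foxp2 (r = 0.94, rho = 0.83) and Neurod6 (r = 0.93, rho = 0.83), with r = 0.85 and 0.82 without mice A and D. The Cux genes ran opposite to Foxp2, with r = -0.88 (rho = -0.94) for Cux1 and r = -0.86 (rho = -0.89) for Cux2. These likenesses did not follow the layer labels: Rorb, an upper layer gene, had r = -0.71 with Cux1 and r = -0.75 with Cux2. Bcl11b had r = 0.72 with Rasgrf2 (rho = 0.89, and r = 0.77 without mice B and C), 0.73 with Fezf2 (0.32 without mice D and E) and 0.79 with Neurod6 (rho = 0.37, and r = -0.77 without mice B and D). Without mice A and D, Lamp5 with Neurod6 went from r = 0.73 to 0.84. With the same mice left out, Rorb with Bcl11b went from r = 0.72 to -0.08, Lamp5 with Foxp2 from 0.72 to -0.11, Rorb with Lamp5 from 0.81 to 0.38 and Foxp2 with Neurod6 from 0.79 to 0.43.

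**Figure D3:**
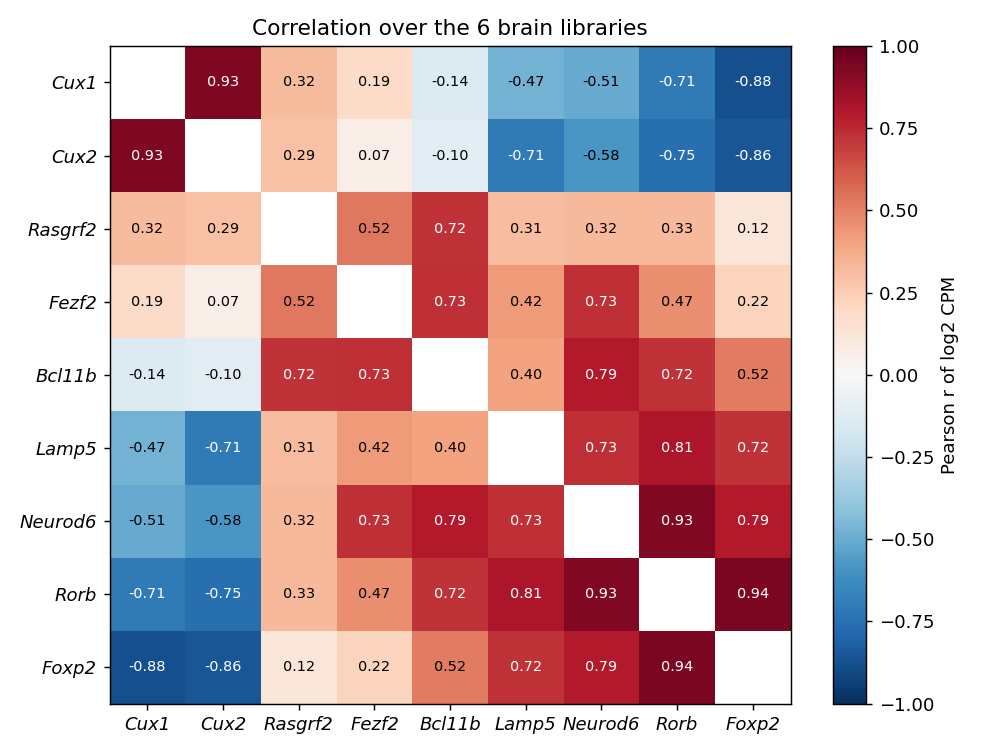
Pearson correlation of log2 CPM between the 9 genes over the 6 brain libraries (3 WT, 3 KO), on a colour scale from -1 to 1. Cux1 and Cux2 form a pair at 0.93 and have negative values with Lamp5, Neurod6, Rorb and Foxp2, which have values of 0.72 to 0.94 among themselves with all libraries, but of -0.11 for Lamp5 with Foxp2 without mice A and D.

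The gene with the pattern most like each member was sought among 17179 other genes tested, by Pearson r of log2 CPM over the 6 brain libraries. Cux1 was closest to Atp6v0e2 (r = 0.997), Cux2 to Slc4a3 (0.999), Rorb to Pde6h (0.997) and Lamp5 to 6330549D23Rik (0.993). Rasgrf2 was closest to Efhd2 (0.991), Fezf2 to Iqgap2 (0.995), Bcl11b to Wdr66 (0.997), Foxp2 to Tmsb4x (0.999) and Neurod6 to Opcml (0.997). With 6 libraries such values are common: from 84 genes for Rasgrf2 to 1310 for Foxp2 had r above 0.9.

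Levels of different genes were compared per kilobase of exon (RPKM from the TMM-scaled CPM). In WT brain the order ran from Lamp5 (14.8 ± 2.45 RPKM) and Neurod6 (13.6 ± 6.11) through Bcl11b (9.13 ± 3.28), Rasgrf2 (8.07 ± 0.881), Cux2 (7.23 ± 1.89), Cux1 (6.25 ± 0.901) and Rorb (5.55 ± 1.3) to Fezf2 (3.36 ± 1.49) and Foxp2 (1.26 ± 0.307; all SD, n = 3). In KO brain Neurod6 (17 ± 3.28 RPKM) stood above Lamp5 (16.1 ± 3.78), and Rorb (7.18 ± 1.18) above Cux2 (6.07 ± 2.27) and Cux1 (5.35 ± 0.710). Each of the 8 neighbouring pairs was tested within libraries, over all 6, with an exact two-sided sign-flip permutation test. Rorb exceeded Fezf2 in 6 of 6 libraries (mean log2 ratio 0.97) and Fezf2 exceeded Foxp2 in 6 of 6 (1.04), each with an exact permutation p of 0.03125, the smallest possible, and an adjusted p of 0.125 over the 8 pairs. The other neighbours, from Lamp5 down to Rorb, were higher in 2 to 5 of 6 libraries, with adjusted p-values from 0.167 to 0.844 in the same exact test. With the length of the longest transcript in place of all exons, Rasgrf2 and Cux1 moved above Bcl11b and Cux2, and 6 of the 8 pairs had an adjusted p under 0.1 by this permutation test. Fezf2 then exceeded Foxp2 by a mean log2 ratio of 0.092 only (adjusted p = 0.625, exact permutation test).

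Liver, a tissue without cortical neurons, gave the background for the brain label. On a scale set over all 12 libraries, all 9 members had a higher mean in brain (exact two-sided permutation test over 6 brain and 6 liver libraries, p = 0.00216, the smallest possible, for 7 members, 0.00433 for Foxp2 and 0.0130 for Cux2). For Cux2 and Foxp2 the tissues overlapped on this scale. The highest liver library (53.2 and 12.3 CPM) lay above the lowest brain library (31.9 and 12.1 CPM). Rorb, Lamp5, Fezf2 and Neurod6 had at most 2 counts in any liver library, which puts the liver at the floor of 3 counts per library. Against that floor, brain was at least 232-fold higher for Rorb, at least 149-fold for Lamp5, at least 108-fold for Neurod6 and at least 33.0-fold for Fezf2. Neurod6 had 0 counts in all 6 liver libraries. No other member was at that floor in every liver library.

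Other members were read in liver as well. Bcl11b had 1 to 16 counts there (119-fold higher in brain), Rasgrf2 30 to 59 counts (20.7-fold) and Foxp2 97 to 184 counts (2.18-fold). Cux1, which is made in many tissues, had 623 to 901 counts in liver, and brain was 1.64-fold higher (91.5 ± 14.2 against 55.9 ± 7.10 CPM, SD, n = 6 each). Cux2 was uneven in liver. It had 9, 8 and 750 counts in the WT livers of mice B, D and E and 17, 26 and 468 counts in the KO livers of mice A, C and F. The livers of mice E and F, which lack Y-linked transcripts, thus held 53.2 and 31.4 CPM, and the other 4 livers at most 1.86 CPM. CUX2 is known as a factor of female mouse liver. In brain the Cux2 levels of mice E and F lay within the range of the other 4 mice on either scale, and the difference between these mice was not tested.

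**Figure D4:**
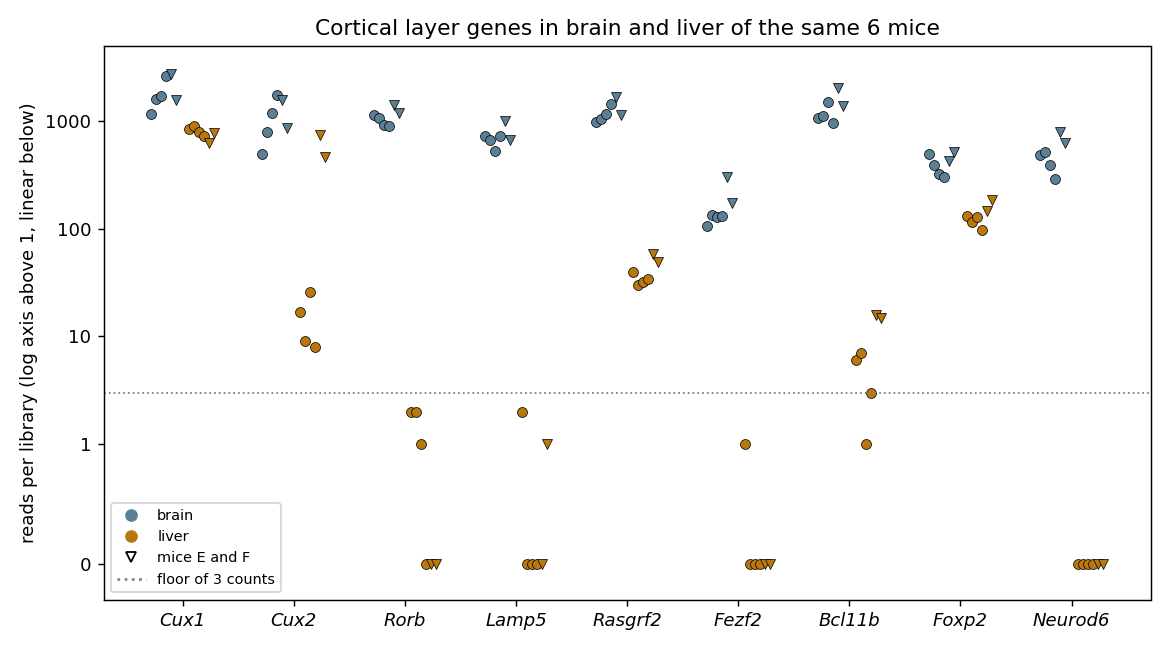
Reads per library for the 9 genes in brain (blue) and liver (orange) of the 6 mice, on an axis that is logarithmic above 1 and linear below; triangles are mice E and F and the dotted line is the floor of 3 counts. Rorb, Lamp5, Fezf2 and Neurod6 sit at 0 to 2 reads in liver, and Cux2 in liver splits into mice E and F (750 and 468 reads) and the rest (8 to 26).

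Further layer genes were listed for comparison. Of 15 other upper layer genes edgeR called 0 and DESeq2 2, beside 0.0640% and 1.52% of all genes, with 2 at an unadjusted p under 0.05 (11.0% of all genes) and 2 whose genotypes did not overlap (16.3%). Of the 15, 11 had a positive and 4 a negative sign, and the median log2 fold change was 0.19 (0.06 without mice A and D). Inhba, which encodes an activin subunit, was at 13.3, 6.02 and 9.65 CPM in WT and at 21.5, 17.8 and 18.2 CPM in KO, ranges that did not overlap (log2 fold change 0.99, edgeR adjusted p = 0.320). Calb1, a calcium buffer also abundant in Purkinje cells, was at 222, 215 and 184 CPM in WT and at 104, 118 and 153 CPM in KO (-0.73, edgeR adjusted p = 0.320). The next by p were Nectin3 (0.32), an adhesion protein, and Rspo1 (0.41), which enhances WNT signals, on the positive side, and the channel subunit Scnn1a (-0.14) and the semaphorin receptor Plxnd1 (-0.05) on the negative side. Of 23 other deep layer genes 0 were called by edgeR, 15 had a positive and 8 a negative sign, and the median was 0.11 (0.07 without mice A and D). At an unadjusted p under 0.05, 8 of these 23 passed (11.0% of all genes), and for 7 of 23 the genotypes did not overlap (16.3% of all genes). DESeq2 called 2 of 23 (1.52% of all genes). The smallest p-values were those of Syt6 (0.92), Tox (0.61) and Crym (0.59) among positive and of Etv1 (-0.83), Zfpm2 (-0.71) and Nr4a2 (-0.57) among negative log2 fold changes, with edgeR adjusted p-values from 0.320 to 0.411. Syt6 and Crym encode a synaptotagmin and a thyroid hormone binding protein, and the other 4 are transcription factors or their partners.

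Paralogs of the members were read as well. Of 14 paralogs 10 were tested, with a median log2 fold change of -0.36 (-0.17 without mice A and D). In edgeR 0 were called (0.0640% of all genes), with 3 at an unadjusted p under 0.05 (11.0% of all genes). DESeq2 called 1 (1.52% of all genes), and 4 of the 10 had KO libraries all below WT (7.94% of all genes did). The 4 with separate ranges were Neurod1, Neurod2, Rora and Lamp1. Neurod1, a factor of granule neurons, was at 83.4, 112 and 73.1 CPM in WT and at 9.84, 51.7 and 36.0 CPM in KO (log2 fold change -1.46, edgeR adjusted p = 0.394). Neurod2 was at 44.8, 62.3 and 54.0 CPM in WT and at 18.0, 38.3 and 30.8 CPM in KO (-0.89, edgeR adjusted p = 0.355), in contrast to the overlapping ranges of Neurod6. Rora, the relative of Rorb that Purkinje cells need, was at 267, 254 and 248 CPM in WT and at 192, 180 and 218 CPM in KO (-0.38, edgeR adjusted p = 0.392), and Lamp1 had -0.34. Bcl11a (0.46), Foxp1 (0.16), Foxp4 (-0.45), Lamp2 (0.04) and Rasgrf1 (-0.19) overlapped between genotypes. Fezf1, Foxp3, Lamp3 and Neurod4 were too low to test, at no more than 0.813 CPM in any brain library.

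Markers of other regions varied between libraries, with edgeR calls between genotypes in the olfactory bulb list only, and their part in the values above was not tested. All 9 cerebellar genes had KO libraries below WT, as 7.94% of all genes did, with a summed level of 974.5 to 1709 CPM in WT and 119.7 to 659 CPM in KO and a median log2 fold change of -1.76 (-0.93 without mice A and D). Of these 9 genes edgeR called 0, with 7 at an unadjusted p under 0.05 (11.0% of all genes), and DESeq2 called 1 (1.52% of all genes). Striatal neurons express Bcl11b and Foxp2 too: the 9 striatal genes summed to 401 to 726 CPM in WT and 721 to 1041 CPM in KO. Their median was 0.57 and came to 0.0063 without mice A and D, with 0 calls in edgeR and in DESeq2. Among these 9, 1 gene had an unadjusted p under 0.05 in edgeR (11.0% of all genes). Of 9 olfactory bulb genes 5 rose in KO (edgeR adjusted p under 0.1, beside 0.0640% of all genes), a count that fell to 1 without KO mouse F, WT mouse B or WT mouse E, with a median of 2.72 (2.88 without mice A and D), although their summed levels (132 to 253 CPM in WT, 160 to 254 CPM in KO) overlapped, and Calb2, the 1 gene of the list with a negative sign (-0.48), held the largest part of them (134, 217 and 101 CPM in WT and 80, 140.3 and 104 CPM in KO). Thalamic, hippocampal and choroid plexus lists had medians of -0.40, -0.42 and -0.98, and of -0.22, -0.10 and -0.72 without mice A and D. Their medians ran from -0.59 to -0.22, from -0.74 to -0.15 and from -1.24 to -0.78 with 1 library left out. In edgeR 0 of the 7, 6 and 6 genes of these lists were called, with 2, 2 and 5 at an unadjusted p under 0.05 (11.0% of all genes), while DESeq2 called 1, 1 and 3 (1.52% of all genes). Summed levels of these lists in WT and KO were 139 to 194 and 127 to 139.7 CPM, 292 to 328 and 217 to 307 CPM, and 233 to 387 and 115 to 182 CPM. None of the markers in these lists was at 0 in all brain libraries.

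The 11 forebrain excitatory genes had a median of -0.08 (-0.09 without mice A and D, 0.24 without WT mouse E and -0.26 without KO mouse C) and summed to 1499.99 to 2835 CPM in WT and 1378 to 2541 CPM in KO. For the 13 interneuron genes the median was 0.06 (-0.02 without mice A and D, 0.31 without WT mouse E and -0.14 without WT mouse D), with sums of 783 to 993 and 773 to 922 CPM. In edgeR 0 genes of either list were called, with 2 of 11 and 5 of 13 at an unadjusted p under 0.05 (11.0% of all genes), while DESeq2 called 1 and 3 (1.52% of all genes). Those with the highest CPM, Camk2a (0.03), Nrgn (-0.20), Gad1 (0.10) and Reln (-0.79), overlapped between genotypes. Beside 16.3% of all genes, the genotypes did not overlap for 1 of the 11 (Bhlhe22, -0.87) and 4 of the 13 (Gad2, 0.55, Adarb2, 0.62, and Ndnf, 0.68, with KO above WT, and Pvalb, -0.88, with KO below), named here after their values were seen. Oligodendrocyte, astrocyte and microglia lists, of 5 genes each, had medians of -0.20, -0.20 and 0.11 with 0 calls in edgeR and in DESeq2 and 0 genes at an unadjusted p under 0.05, and medians of -0.08, 0.04 and 0.19 without mice A and D. With 1 library left out the medians ran from -0.30 to -0.07, from -0.32 to -0.08 and from -0.16 to 0.19. Of 5 liver genes 3 could be tested in brain, with 0 calls in edgeR, 2 genes at an unadjusted p under 0.05 (11.0% of all genes) and 1 call in DESeq2 (1.52% of all genes). Their median of -0.97 is the value of Ttr, which also belongs to the choroid plexus list, and Alb, the main liver marker, was at 9.71 to 24.3 CPM.

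**Figure D5:**
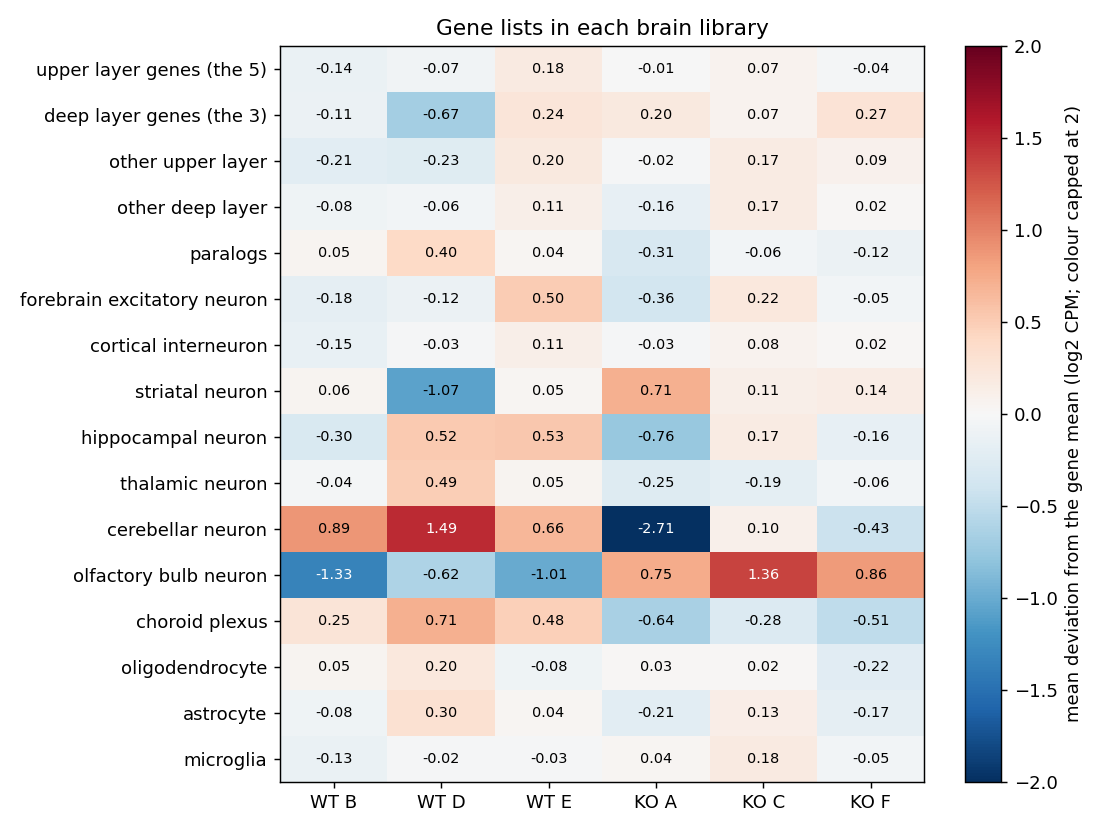
Mean deviation of each gene list (rows) from its genes' means over the 6 brain libraries, in log2 CPM, with the colour capped at 2. The 5 upper layer members lie within -0.14 to 0.18 in all libraries and the 3 deep layer members are lowest in WT mouse D (-0.67), whereas the other deep layer genes are lowest in KO mouse A (-0.16), and the widest contrasts are those of the cerebellar list (-2.71 in KO mouse A, 1.49 in WT mouse D) and of the olfactory bulb list.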

How the data were processed

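RNA was measured in 12 libraries from the brain and liver of 6 mice, grouped by the genotype and tissue in the labels. The authors prepared stranded total RNA libraries, read them single-end, trimmed with Trimmomatic, aligned to mm10 with STAR 2.7.3a and counted exonic reads per gene with featureCounts on the reverse strand. The deposited values are raw counts, and no count column was left without a sample. Groups of 3 libraries, 1 per mouse, were compared, so p-values measure the spread between these mice, which the labels do not say are littermates.

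Members and gene lists were chosen with earlier results of these data known, so genotype p-values were adjusted over all genes tested. Brain counts were fitted with edgeR 4.0.16 in R 4.3.3 (TMM, filterByExpr, robust quasi-likelihood F test, Benjamini-Hochberg, call at an adjusted p under 0.1), without covariates. The study itself used DESeq2, run here as an alternative (version 1.42.0). Intervals are 95%. Levels across tissues used log2 CPM with a prior count of 2. Fold changes against liver at 3 counts or fewer are lower bounds taken at 3 counts in a library. They do not cover counting error, as the 95% Poisson upper limit is 3.69 for 0 counts and 7.22 for 2. On simulated counts (17175 genes) the edgeR step recovered 79% of 2-fold changes (log2 change of 1) and 100% of those with a log2 change of 2, with 11 false calls. The simulation gave all genes the same dispersion, changed only genes above a minimum count and held no regional differences between mice. These rates therefore check the code and do not give the power in the brain libraries. Symbols were matched for 55141 of 55487 genes, and positions are those of mm10.

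Named genes were all members, Mettl5 and the paralogs (the values of 1 are not reported here), the 3 smallest p in each direction from the other layer lists, genes among the 2 with the highest mean CPM of each other list, and for each member the gene with the highest r. Bhlhe22, Gad2, Adarb2, Ndnf and Pvalb were named outside this rule, after their values were seen. Letters pair the brain and liver of a mouse. Deviations of a mouse's tissues from their group means correlated at -0.114 to 0.0876 over 11164 genes. Alternatives were DESeq2, other size factors, no filter, all libraries in 1 fit, a Y-linked covariate, no mitochondrial genes, a GC and length offset (lowess span 0.3), each library left out, other lengths and prior counts, and, chosen after seeing the data, mice A and D left out together.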

Additional observations from a re-analysis of the deposited data

How the results depend on the processing

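The count of calls over all genes was 11, and it was 267 with DESeq2 (of 17567 genes), 1000 without a filter on low counts (of 31780), 78 with the GC and length offset, 2 to 23 with 1 library left out and 6 without KO mouse A and WT mouse D, an alternative chosen after seeing the data. No call was made among the 9 layer genes in any of the 14 alternatives, except Foxp2 without a filter (log2 fold change 0.63, edgeR adjusted p = 0.0269). Among the members' estimates under these alternatives, 116 kept their sign and their side of the threshold and 9 turned sign. Without mice A and D, Cux2 was at 0.12, Lamp5 at -0.19 and Neurod6 at -0.072, and with the GC and length offset Fezf2 was at 0.078. With 1 library left out, Lamp5 ran from -0.082 to 0.25 (-0.00052 without mouse D), Fezf2 from -0.31 to 0.36 (0.016 without mouse A, 0.36 without mouse E), Neurod6 from -0.011 (without mouse D) to 0.62, Cux1 from -0.34 to -0.14, Cux2 from -0.58 to -0.03, Rorb from 0.18 to 0.49, Rasgrf2 from 0.03 to 0.19, Bcl11b from 0.14 to 0.68 and Foxp2 from 0.47 to 0.85. With the longest transcript as length, the log2 ratio was -0.38 for Bcl11b over Rasgrf2, -0.29 for Cux2 over Cux1 and 0.27 for Cux1 over Rorb, which turned sign, and 0.66 for Lamp5 over Neurod6, 0.51 for Neurod6 over Bcl11b, 0.85 for Rasgrf2 over Cux2 and 0.90 for Rorb over Fezf2, which passed the threshold, while Fezf2 over Foxp2 went from 1.04 to 0.092. The upper minus deep difference ran from -0.46 to -0.13 (without WT mouse D) with 1 library left out. With mouse as a replicate block, brain exceeded liver for each member in 6 of 6 mice (exact sign-flip permutation test, p = 0.03125, the smallest possible, log2 differences from 0.70 for Cux1 to 6.85 for Bcl11b among the members above the floor in liver), and the block changed no call. Calls in the other upper layer, other deep layer and paralog lists, 0 each, came to 2, 2 and 1 with DESeq2, to 2, 6 and 2 without a filter and to 1 each with the GC and length offset, and those in the forebrain, interneuron, striatal, hippocampal, thalamic, cerebellar, choroid plexus, oligodendrocyte and liver lists, 0 each, to 2, 5, 1, 2, 1, 1, 4, 1 and 1 without a filter. Those in the olfactory bulb list, 5, came to 8 without a filter and to 1 to 5 with 1 library left out. The cause of each move was not tested.

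With 3 mice a genotype, the 95% intervals reached from -0.21 to 0.39 (Rasgrf2, the narrowest) and from -0.45 to 1.08 (Neurod6, the widest) on the log2 scale.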
